A study of Mus musculus with 3 samples.

Results

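The regions enriched for an acidic patch mutant of H2A.Z were set against the regions enriched for trimethylated lysine 27 of histone H3 (H3K27me3) at every protein-coding gene of the mouse. A gene was said to hold a list when at least 1 bp of it was covered by a listed region within 2 kb of the gene's most upstream start. Of 22342 protein-coding genes in the GENCODE vM1 annotation of mm9, 3779 held H3K27me3 and 4649 held the mutant. Both were held by 1487 genes, H3K27me3 without the mutant by 2292, the mutant without H3K27me3 by 3162, and neither by 15401. No measured level chose these genes beyond the presence of a listed region.

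ChIP-Seq was performed on mouse embryonic stem cells (ESCs) grown in serum and leukemia inhibitory factor (LIF), without feeder cells at the final passage. The mutant library came from cells expressing H2A.Z-AP3, in which the H2A.Z residues of the extended acidic patch were exchanged for those of H2A (G92N, D97N and S98K), and the library set beside it came from cells expressing the unmutated transgene, H2A.Z-WT. Both transgenes were carried by lentivirus into KH2 ESCs, were driven by a doxycycline-inducible CMV promoter, bore a C-terminal YFP tag and were immunoprecipitated with an anti-GFP antibody. Cells were sorted for YFP and carried a short hairpin that lowers endogenous H2A.Z through its 3′ UTR. The H3K27me3 library was labelled as wild-type genotype and carried no transgene in its label, so the overlap with the mutant compares separate cultures and does not show both on the same chromatin. The labels give the strain of all 3 libraries as V6.5 (129SvJaexC57BL/6), whereas the text on treatment has the transgenic lines made from KH2 cells. Each group had 1 library, no test between groups was possible, and shares are given with 95% Wilson intervals that cover counting error only and treat genes or regions as independent. The lists hold coordinates without heights or read counts, so the depth behind each list is unknown, and a region absent from a list is one that did not pass the authors' threshold in that library.

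H2A.Z is a variant of histone H2A that is exchanged into nucleosomes flanking the starts of active and poised genes, and its acidic patch is a surface of the nucleosome that other proteins bind. H3K27me3 is deposited by the Polycomb repressive complex PRC2 and is read by PRC1. In ESCs it covers CpG-rich promoters of silent developmental regulators, many of which also carry trimethylated lysine 4 of histone H3 and are then called bivalent.

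Short stretches from the middle of listed regions are shown to let both outcomes at marked genes be seen in the mm9 sequence. Those for Wnt2, Pax6 and Foxc1 come from the longest mutant region near the start of each gene, and those for Prdm12, Nkx2-3 and Shh from the longest H2A.Z-WT region that reached the window of an H3K27me3 gene with no mutant region. Each has 30 bases of the plus strand, with CpG dinucleotides in capitals.
Wnt2: agcaggcaCGCGgataggaaggataaCGgt
Pax6: ccactcccttccttgcccaccatctccaCG
Foxc1: tccagaatgcccCGgacaagaagatcactc
Prdm12: gccCGgtacacccactctccactgggctcc
Nkx2-3: tCGgcaccctgcatgctggccaCGgctgaa
Shh: agccagacCGcCGaagacccccctgcagac

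The Wnt2 stretch lay at chr6:17981586-17981615 in intergenic sequence, centred 1 kb upstream of the start, inside a mutant region of 1900 bp with 3.11 CpG per 100 bp. The Pax6 stretch was at chr2:105507998-105508027, in an intron of Pax6os1, in a region with 2.40 CpG per 100 bp, and the Foxc1 stretch at chr13:31899348-31899377, in a coding exon of Foxc1, in a region with 8. All 3 regions lay wholly or almost wholly on listed H3K27me3, over 1900 of 1900 bp at Wnt2, 125 of 125 bp at Pax6 and 350 of 375 bp at Foxc1. The wild-type regions without the mutant held 4.63 CpG per 100 bp at Prdm12 (chr2:31493536-31493565, intergenic), 5.07 at Nkx2-3 (chr19:43687111-43687140, coding exon) and 10.4 at Shh (chr5:28791423-28791452, intron). Whole H3K27me3 domains held 3.18 CpG per 100 bp.

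The mutant was listed at a larger share of genes with H3K27me3 than of genes without it. It was held by 1487 of 3779 H3K27me3 genes (39.3%, 37.8 to 40.9), against 3162 of 18563 genes without the mark (17.0%, 16.5 to 17.6) and 20.8% of all genes. Read the other way, 32.0% of mutant genes held H3K27me3 (30.7 to 33.3), against 16.9% of all genes. The difference in the mutant's share was 22.3 percentage points (20.7 to 24.0). Neighbouring genes can share a window, which was so for 12.9% of genes with both and 17.0% of all genes. The difference was 23.5 points over genes whose window touched no other.

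Wild-type coverage moved with the mark. H2A.Z-WT was listed at 3546 of 3779 H3K27me3 genes (93.8%, 93.0 to 94.6) and at 51.8% of genes without it (51.1 to 52.5). Among genes that held H2A.Z-WT, the mutant's share was 41.4% with H3K27me3 (39.8 to 43.0) and 30.0% without (29.1 to 30.9), a difference of 11.4 points (9.57 to 13.3). The mutant thus was not listed at the majority of the H3K27me3 genes at which the wild-type protein was. Only 19 of the 233 H3K27me3 genes with no wild-type region held the mutant (8.15%, 5.28 to 12.4).

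Grouped by the length covered by H2A.Z-WT, genes with and without H3K27me3 held the mutant at similar shares over much of the range. At 501 to 1000 bp of wild-type coverage the shares were 35.6% with the mark (33.0 to 38.3) and 35.1% without (33.6 to 36.7). At 1 to 250 bp they were 11.1% (7.64 to 15.9) and 14.9% (13.4 to 16.4), and at 1001 to 1500 bp they were 48.3% (45.2 to 51.4) and 45.1% (42.1 to 48.2). In these groups the intervals overlapped. At 1501 to 2000 bp the share was 61.7% with the mark (57.1 to 66.1) and 48.0% without (41.5 to 54.5), and these intervals did not overlap. With no wild-type coverage at all, 8.15% of H3K27me3 genes and 3.13% of other genes (2.79 to 3.51) held the mutant.

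The breadth of H3K27me3 at a gene went with a small part of the range in the mutant's share. Genes with 1 to 500 bp of H3K27me3 held the mutant in 453 of 1288 cases (35.2%, 32.6 to 37.8). The share was 39.7% at 501 to 1000 bp (36.1 to 43.4), 40.9% at 1001 to 2000 bp (37.9 to 44.0) and 43.9% at 2001 to 3000 bp (39.9 to 48.1). In the broadest group, 3001 to 4001 bp, it was 43.5% (37.6 to 49.7). Over the same groups the mean wild-type coverage went from 748 bp to 1335 bp, and from the narrowest to the broadest the mutant-covered length as a percentage of the wild-type-covered length went from 15.3% to 10.8%. Their separate parts in the mutant's share were not tested.

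**Figure D1:**
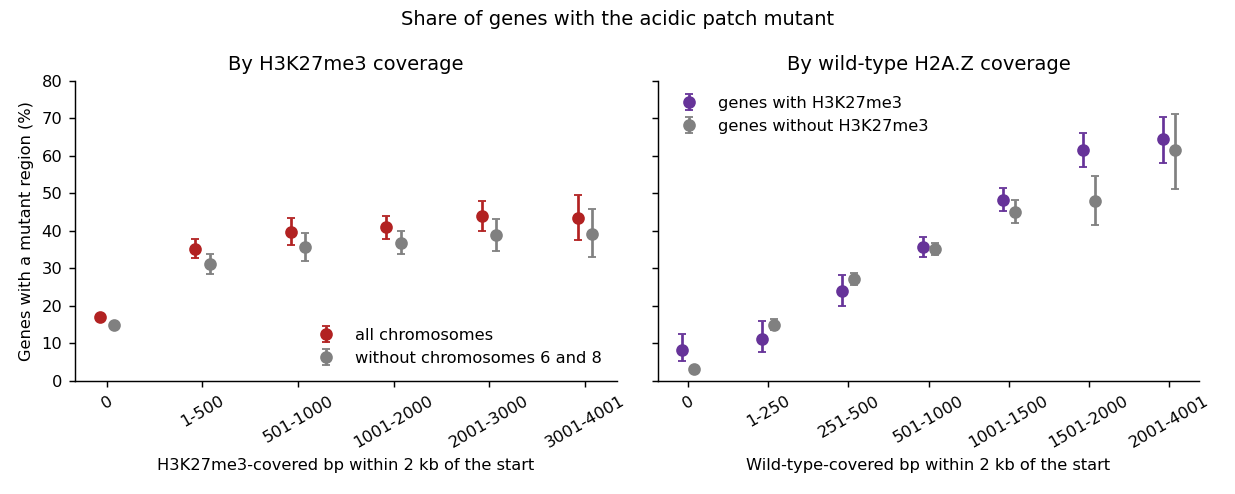
Share of genes that hold the mutant (vertical axis, %) by H3K27me3-covered bp (left) and by wild-type-covered bp (right) within 2 kb of the most upstream start. Points are shares and bars 95% Wilson intervals. Between 1 and 4001 bp of H3K27me3 the share lies between 35.2% and 43.9%, whereas with over 2000 bp of wild-type coverage it reaches 64.5% at H3K27me3 genes and 61.6% at genes without the mark.

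Between genes with both and H3K27me3 genes without the mutant, the widest gap in medians was in wild-type coverage. The median wild-type-covered length was 1150 bp at genes with both (quartiles 775 and 1600 bp) and 775 bp at H3K27me3 genes without the mutant (400 and 1150 bp). The median H3K27me3-covered length was 1050 bp (375 and 1972 bp) and 875 bp (275 and 1750 bp), respectively. The number of CpG dinucleotides within 500 bp of the start had a median of 64 and 59, against 56 at genes with the mutant alone and 23 at genes with neither. Quartiles overlapped in each of these comparisons of H3K27me3 genes.

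The mutant's own coverage was short and its length showed little relation to that of the mark. At genes with both, the mutant covered a median of 225 bp (125 and 450 bp), and at mutant genes without H3K27me3 a median of 200 bp (100 and 350 bp). In 353 of the 1487 genes with both, the mutant covered at most 100 bp. Across these 1487 genes the rank correlation of mutant-covered with H3K27me3-covered length was 0.023, and with wild-type-covered length it was 0.257, or 0.178 without chromosomes 6 and 8. These describe genes within 1 set of libraries, which are not independent replicates.

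At many genes with both, the mutant did not lie on the marked bases. In 937 of 1487 such genes (63.0%, 60.5 to 65.4) at least 1 mutant base was on a listed H3K27me3 base. Of the mutant-covered bases near these starts, 48.3% were on H3K27me3, close to the 46.2% of wild-type-covered bases and above the 31.6% of all bases in the windows. By comparison, 92.3% of the mutant-covered bases were on H2A.Z-WT.

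The position of the mutant around the start differed between genes with and without the mark. At genes with both, the mutant had a lower maximum in the 25-bp bin starting 300 bp upstream of the start (14.9% of genes covered), a low point between them (10.3% in the bin that starts 75 bp upstream) and a higher maximum 350 bp downstream (24.0%). At mutant genes without H3K27me3 the maxima were 22.9% at 300 bp upstream and 26.2% at 175 bp downstream. The part of mutant-covered bases that lay upstream of the start was 32.1% with the mark and 49.8% without. For H2A.Z-WT the shares lay in the same order and closer together, with 32.2% of its bases upstream at genes with both and 38.8% at mutant genes without H3K27me3.

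Taken over all genes with both, the maxima of H3K27me3 lay farther from the start than those of the mutant. At genes with both it covered 20.0% of genes in the bin before the start, 33.2% at 675 bp upstream and 49.7% at 975 bp downstream. At H3K27me3 genes without the mutant the values were lower and the shape similar, with 17.0%, 29.0% at 725 bp upstream and 44.3% at 950 bp downstream. The highest 25-bp bin of H2A.Z-WT lay 300 bp downstream at genes with both, with 72.9% of genes covered in it. At H3K27me3 genes without the mutant it lay 275 bp downstream, with 53.1% covered.

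**Figure D2:**
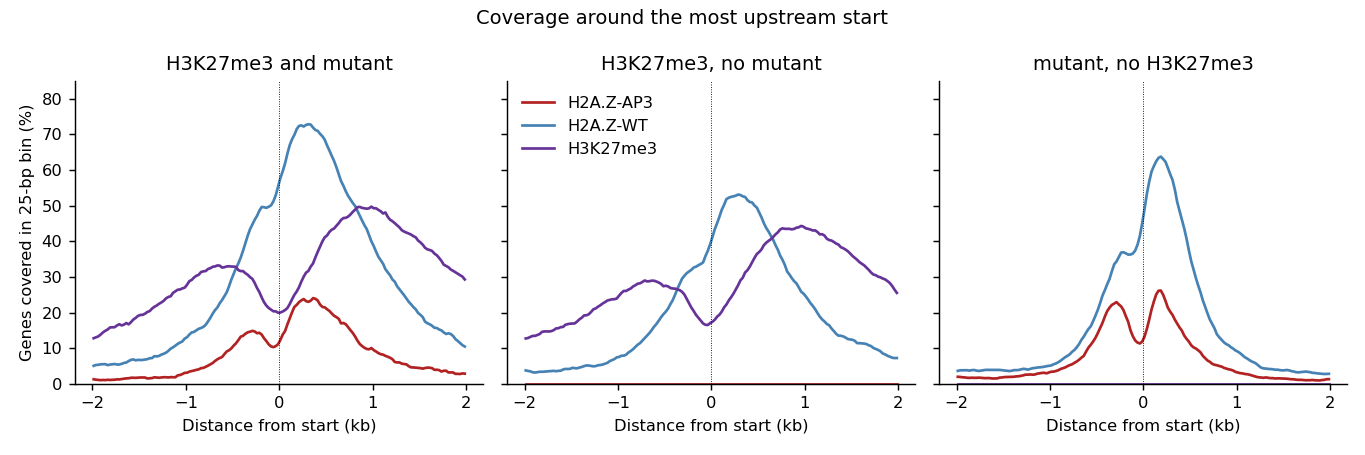
Share of genes covered in each 25-bp bin (vertical axis, %) by distance from the most upstream start (kb, negative upstream) for H2A.Z-AP3, H2A.Z-WT and H3K27me3, at the 1487 genes with both, the 2292 H3K27me3 genes without the mutant and the 3162 mutant genes without H3K27me3. The class of a gene fixes that a list at 0 stays at 0. The mutant has 2 maxima around the start, of 14.9% and 24.0% at genes with both, nearer to the start than the maxima of H3K27me3.

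Chromosomes 6 and 8 stood apart from the rest. On chromosome 6 the mutant was held by 169 of 214 H3K27me3 genes (79.0%, 73.0 to 83.9) and on chromosome 8 by 129 of 177 (72.9%, 65.9 to 78.9). On the other 17 autosomes the share lay between 29.8% and 47.4%, with a median of 34.6%, while on the X chromosome it was 7 of 56 (12.5%, 6.19 to 23.6). At genes without the mark, the shares were also higher on chromosomes 6 (32.4%) and 8 (42.5%). H3K27me3 genes of these chromosomes also had more wild-type coverage, with means of 1395 and 1441 bp against 862 to 1106 bp on the other autosomes. Mutant-covered length as a percentage of wild-type-covered length at H3K27me3 genes was higher there too. It was 36.2% on chromosome 6 and 30.7% on chromosome 8, against 7.74% to 16.8% on the other autosomes. The part of wild-type coverage in the mutant's share on chromosomes 6 and 8 was not tested.

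The higher share at H3K27me3 genes was seen on all 20 chromosomes, with differences between 7.82 and 46.6 percentage points. Without chromosomes 6 and 8, the mutant was held by 1189 of 3388 H3K27me3 genes (35.1%, 33.5 to 36.7) and by 2467 of 16701 genes without the mark (14.8%, 14.2 to 15.3).

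**Figure D3:**
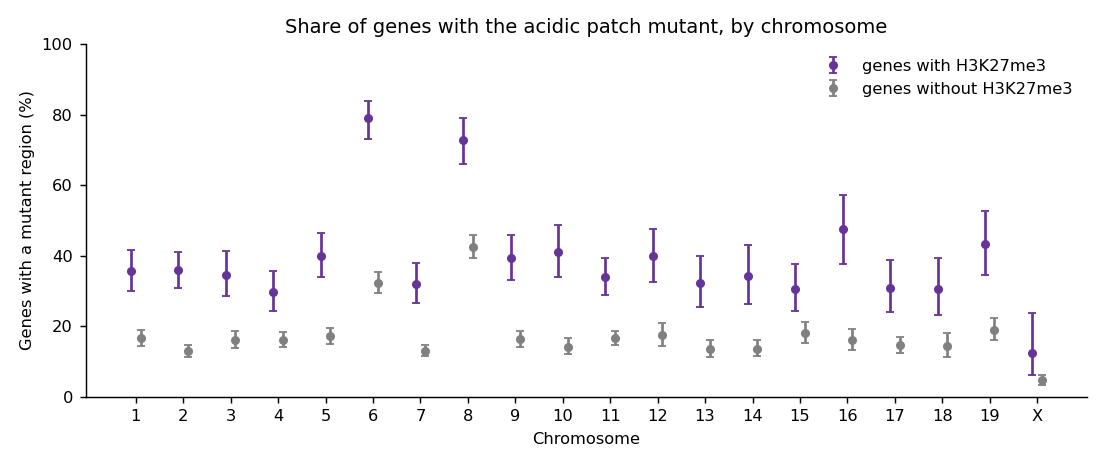
Share of genes that hold the mutant (vertical axis, %) on each chromosome, for genes with and without H3K27me3. Bars are 95% Wilson intervals. Chromosomes 6 and 8 lie above the others at 79.0% and 72.9% of H3K27me3 genes, and on each chromosome the point for H3K27me3 genes is the higher one.

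Of the 10 H3K27me3 genes with the longest mutant coverage, 9 lay on chromosomes 6 and 8. Gm16499 on chromosome 6 had 3007 bp of mutant, 2469 bp of H3K27me3 and 3257 bp of H2A.Z-WT, and it shared its window with Tril, a regulator of Toll-like receptor signalling, with 2157 bp of mutant. Hapln4, which encodes a link protein of the extracellular matrix around neurons, had 2550 bp of mutant, of which 1400 bp lay on H3K27me3. Wnt2, a secreted Wnt ligand, had 2275 bp of mutant, of which 2250 bp lay on H3K27me3. The heat shock factor gene Hsf4 had 2100 bp of mutant and 2876 bp of H3K27me3. In contrast, the potassium channel gene Kcnk1 had 1975 bp of mutant but only 325 bp of H3K27me3, and Ppp1r3b, a glycogen-targeting subunit of protein phosphatase, had 1875 bp and 500 bp. Gm22 (2050 bp of mutant) and 4932443L11Rik (1925 bp) were also among the 10.

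Away from chromosomes 6 and 8, Gna14, a G protein subunit, had 1775 bp of mutant and 600 bp of H3K27me3. The neighbours Odf3b and Tymp on chromosome 15 shared 1 mutant region and had 1716 and 1654 bp, and both had 0 bp of mutant in the stricter list. Klhdc7b had 1650 bp of mutant, of which 25 bp lay on H3K27me3. Fut4, a fucosyltransferase, had 1425 bp, Ptger3, a prostaglandin E receptor, 1350 bp, and Crym, a thyroid hormone-binding crystallin, 1175 bp. At Fut4 and Ptger3 all but 75 and 0 bp, respectively, lay on the mark.

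Some H3K27me3 genes had no mutant region within 2 kb of the start although the mark filled or nearly filled this window. Prdm12, a neural zinc finger gene, Nkx2-3, a homeobox gene, Nr2e1, an orphan nuclear receptor, and Shh, a hedgehog ligand, were covered by H3K27me3 over the whole window of 4001 bp. Their wild-type-covered lengths were 1801, 1001, 800 and 735 bp. Ostm1 has its start close to that of Nr2e1 and shared its window and values. The homeobox gene Gsx2 had 3962 bp of H3K27me3 and 800 bp of H2A.Z-WT, Duoxa2, a maturation factor of an oxidase, had 3961 and 875 bp, and the zinc finger gene Ovol1 had 3826 and 1575 bp. Equally broad marks stood at genes that held the mutant, as at Pax6 and Tlx2 with 4001 bp each. In the stricter list Tlx2 had 625 bp of mutant and Pax6 had 0 bp. Wnt10a had 3790 bp of H3K27me3 and no wild-type region either. None of the genes named here as lacking the mutant had a mutant region in the stricter list.

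Absence of the mutant was also seen at some genes with long wild-type coverage. Of the H3K27me3 genes without the mutant, those with the longest wild-type coverage are given here. With 2001 to 4001 bp of wild-type coverage, 64.5% of all H3K27me3 genes held the mutant (58.1 to 70.4). The adrenomedullin gene Adm had 3026 bp of H2A.Z-WT, 1900 bp of H3K27me3 and 0 bp of mutant, and 75 bp of mutant in the stricter list. Dok1, an adaptor protein of tyrosine kinase signalling on chromosome 6, had 3111 bp of H2A.Z-WT and 1475 bp of H3K27me3, with 225 bp of mutant in the stricter list. Gm5105, A230052G05Rik and Lrtm2 had 3526, 3076 and 3076 bp of H2A.Z-WT and no mutant region at either threshold.

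Gene families of developmental regulators were described by how many of their H3K27me3 genes held the mutant, beside the 39.3% of all H3K27me3 genes. Counts are of annotated gene records, and a few symbols, among them Hoxa3 and Gsx2, have 2 records with shared windows. The 8 families of transcription factors together had 229 H3K27me3 genes among 268, and 107 of these held the mutant (46.7%, 40.4 to 53.2). Without chromosomes 6 and 8 the count was 77 of 194 (39.7%), beside 35.1% of all. Their H3K27me3 was broad, with a median of 2713 bp against 950 bp over all H3K27me3 genes, whereas their wild-type coverage had a median of 1075 bp against 925 bp. The families were small, and the intervals of all but the Sox and bHLH factors include the share of all H3K27me3 genes.

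The Hox genes, which set position along the body axis, all held H3K27me3, and 18 of 39 held the mutant (46.2%, 31.6 to 61.4), counting Hoxa3 once although the annotation has it as 2 records with overlapping windows. The mutant was at 9 of 11 genes of the Hoxa cluster on chromosome 6, 4 of 10 of Hoxb, 1 of 9 of Hoxc and 4 of 9 of Hoxd. Within Hoxa, Hoxa6 was counted without it but had 250 bp in the stricter list. Hoxa2, Hoxa9 and Hoxa11 were counted with it but had 0 bp there. At the Hoxa3 record with more of it the mutant covered 1550 bp, of which 1525 bp lay on H3K27me3, while the longest coverage in Hoxb was 250 bp at Hoxb13, in Hoxc 25 bp at Hoxc5 and in Hoxd 325 bp at Hoxd9. The median wild-type coverage was 1401 bp in Hoxa and 513, 475 and 750 bp in Hoxb, Hoxc and Hoxd. Outside chromosomes 6 and 8, 9 of 28 Hox genes held both.

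The forkhead family, DNA-binding factors of many lineages, held the mutant at 14 of 27 H3K27me3 genes, led by Foxd4 with 1050 bp. Foxc1 had 600 bp of mutant, of which 575 bp lay on its 2226 bp of H3K27me3. The T-box family held it at 8 of 12, with 650 bp at Tbr1, a cortical neuron factor, 625 bp at Tbx4, a hindlimb factor, and 300 bp at Tbx1. The lineage Sox factors held it at 8 of 11, with 775 bp at Sox18, an endothelial factor, and 595 bp at Sox10, a neural crest factor. The bHLH factors held it at 16 of 26, with 975 bp at Olig3 and 575 bp at Hand1. The intervals were 39.1 to 86.2% for the T-box family, 43.4 to 90.3% for the Sox factors and 42.5 to 77.6% for the bHLH factors. Without chromosomes 6 and 8 the counts were 8 of 12, 7 of 10 and 13 of 22, and that of the forkhead family was 9 of 22.

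Other families were nearer to the share of all H3K27me3 genes or below it. Homeobox genes outside the Hox clusters held the mutant at 38 of 99 (38.4%, 29.4 to 48.2). It covered 1200 bp at Emx1, a forebrain factor on chromosome 6, and 925 bp at Pou4f2, a factor of retinal ganglion cells on chromosome 8. Pax factors held it at 3 of 9. At Pax6, a regulator of eye and brain, H3K27me3 filled the window of 4001 bp. The mutant covered 200 bp of it in 2 regions, and 0 bp in the stricter list. Gata factors held it at 1 of 5, with 200 bp at Gata2, a blood factor on chromosome 6. Without chromosomes 6 and 8 the homeobox count was 28 of 88 (31.8%), beside 35.1% of all H3K27me3 genes. The Pax count was then 3 of 8 and the Gata count 0 of 4.

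Among signalling genes, Wnt ligands held the mutant at 8 of 18 H3K27me3 genes, but at 4 of 14 without chromosomes 6 and 8. Wnt16 had 1600 bp and Wnt5b 1025 bp, both on chromosome 6, and Wnt11 on chromosome 7 had 275 bp. Fgf ligands held it at 2 of 12 (16.7%, 4.70 to 44.8), with 250 bp at Fgf3. Bmp, Nodal, activin and Gdf ligands held it at 7 of 19, with 575 bp at Bmp8a, none of it on H3K27me3. Of the 3 hedgehog ligands, all with the mark, Ihh had 500 bp of mutant and Shh had 0 bp. Axon guidance ligands and receptors held it at 17 of 49, with 1400 bp at Plxnd1, a semaphorin receptor on chromosome 6. Without chromosomes 6 and 8 their count was 12 of 42, and those of the Fgf, Bmp and hedgehog groups were unchanged.

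The nuclear receptors held the mutant at 6 of 19 H3K27me3 genes, with 875 bp at Pparg, the adipocyte regulator on chromosome 6. Voltage-gated potassium channels held it at 10 of 33, with 975 bp at Kcna5 on chromosome 6 and 850 bp at Kcnc2 on chromosome 10. Without chromosomes 6 and 8 the counts were 4 of 17 nuclear receptors and 6 of 28 potassium channels. Of the Polycomb subunits, 8 had H3K27me3, and of these Phf19, a PRC2-associated protein, held the mutant, with 300 bp that did not touch the mark. Of the core pluripotency factors, 5 had H3K27me3 and 0 held the mutant, a share with an upper limit of 43.4%.

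Of 8 genes chosen from those for which the study lists primers for PCR on immunoprecipitated DNA, 5 held H3K27me3 in the lists. Gata6, which also has primers there but was not among the 8, had 2375 bp of H3K27me3 and 0 bp of mutant. Hoxa11 had 125 bp of mutant (0 bp in the stricter list), 3676 bp of H3K27me3 and 1200 bp of H2A.Z-WT. Bmp2, Foxa2, T and Zfpm2 had 1170, 3526, 3476 and 1275 bp of H3K27me3 and 0 bp of mutant. The study grouped Zfpm2 with active rather than bivalent promoters. The ones without H3K27me3 (Nagk, Pou5f1 and Thra) also had 0 bp of mutant, while Nagk and Thra had 1225 and 1050 bp of H2A.Z-WT.

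H3K27me3 regions were then joined across gaps of up to 1 kb into 8348 domains that spanned 13.3 Mb, with a median length of 650 bp. Of the 14599 mutant regions, 1425 (9.76%, 9.29 to 10.3) lay wholly inside a domain, 365 (2.50%, 2.26 to 2.77) crossed a domain edge, 725 lay outside but within 1 kb, and 12084 (82.8%) were farther away. Of the 1790 mutant regions that touched a domain, 79.6% were wholly inside (77.7 to 81.4). For the 6532 wild-type regions that touched a domain, the share was 64.7% (63.5 to 65.8), but the wild-type regions inside domains had a median length of 475 bp against 175 bp for the mutant.

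Between regions of similar length, mutant and wild-type regions lay inside domains at closer shares. At 25 to 100 bp, 96.6% of mutant regions (94.6 to 97.9) and 94.5% of wild-type regions (92.0 to 96.2) that touched a domain were wholly inside. At 275 to 500 bp the shares were 71.9% (67.0 to 76.3) and 70.4% (67.9 to 72.7), and at 525 to 1000 bp 60.7% (54.6 to 66.5) and 58.7% (56.6 to 60.8). They were farther apart at 125 to 250 bp, at 83.4% (80.3 to 86.1) and 77.9% (75.2 to 80.4), and above 1000 bp, where the order was the other way, at 39.4% (28.9 to 51.1) of 71 mutant regions and 50.1% (47.6 to 52.5) of 1564 wild-type regions. The intervals overlapped in each group of lengths.

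Inside domains, mutant bases were more often on listed H3K27me3 than domain bases in general. A domain includes joined gaps, and 69.9% of its bases were on listed H3K27me3. Of mutant-covered bases inside domains 81.9% were, and of wild-type-covered bases 78.4%. Mutant regions that lay inside a domain but wholly in a gap numbered 148 of 1425 (10.4%, 8.91 to 12.1), and wild-type regions 200 of 4225 (4.73%, 4.13 to 5.42). At 25 to 100 bp in length, these shares were 17.4% and 17.3%.

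The edges of domains of 2 kb or more held less of the mutant than their interiors. Over all 8348 domains the contrast was smaller. There 32.7% of mutant-covered bases lay within 500 bp of an edge, against 35.9% of all bases and 28.3% of wild-type-covered bases. In the 2167 domains of 2 kb or more, 21.3% of all bases lay within 500 bp of an edge, whereas 12.2% of mutant-covered bases did (10.4 to 14.2, taking each mutant region as 1 count) and 13.4% of wild-type-covered bases did. The contrast depended on joining, since in the 885 regions of 2 kb or more as listed 28.7% of mutant-covered bases (24.3 to 33.9) lay within 500 bp of an edge, against 32.2% of all bases and 30.1% of wild-type-covered bases. In the 500 bp outside the edge the mutant covered 0.749% of bases, in the first 500 bp inside 1.78%, at 500 to 1000 bp 3.44%, at 1000 to 1500 bp 4.72% and at 1500 to 2000 bp 5.00%. At 2000 to 2500 bp it was 3.76%. Between 3 and 5 kb outside it covered 0.161%.

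H2A.Z-WT had the same course at higher coverage, from 8.03% in the 500 bp outside the edge to 38.2% at 1500 to 2000 bp inside. Mutant-covered length as a percentage of wild-type-covered length was 5.90% between 3 and 5 kb outside, 10.2% between 1 and 3 kb outside, 11.1% at 500 to 1000 bp outside and 9.32% in the last 500 bp outside. Inside it was 10.6% in the first 500 bp, 13.5% at 500 to 1000 bp, 13.5% at 1000 to 1500 bp, 13.1% at 1500 to 2000 bp and 10.7% at 2000 to 2500 bp. CpG density also went from 2.03 per 100 bp in the 500 bp outside to 4.52 at 1500 to 2000 bp inside, and its part in the mutant's course was not tested. Without chromosomes 6 and 8 the mutant covered 0.449% of bases just outside and 3.55% at 1500 to 2000 bp inside.

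**Figure D4:**
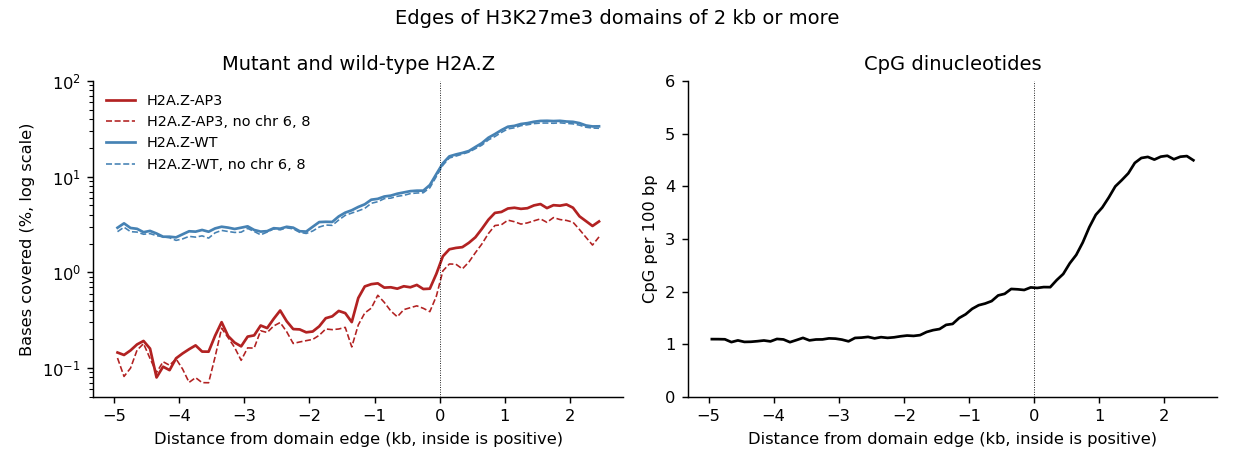
Bases covered by H2A.Z-AP3 and H2A.Z-WT (left, %, log scale) and CpG per 100 bp (right) by distance from the edge of H3K27me3 domains of 2 kb or more (kb, positive inside), in 100-bp bins. Dashed lines leave out chromosomes 6 and 8. Both proteins and CpG are lower outside the edge and higher inside, with 0.749% of bases covered by the mutant in the 500 bp outside and 5.00% at 1500 to 2000 bp inside.

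Of the 8348 domains, 1455 held a mutant region (17.4%, 16.6 to 18.3) and 50.9% a wild-type region. The share with the mutant was 4.48% for domains of at most 500 bp (3.87 to 5.17), 23.2% at 1025 to 2000 bp (21.0 to 25.6), 36.2% at 2025 to 5000 bp (33.9 to 38.6) and 63.3% above 10 kb (95 of 150, 55.4 to 70.6). Longer domains offer more bases for a region to touch. Per base the course was another one. The mutant covered 3.98% of the bases of domains of at most 500 bp, 3.81% at 525 to 1000 bp, 4.52% at 1025 to 2000 bp, 4.20% at 2025 to 5000 bp, 2.33% at 5025 to 10000 bp and 1.64% above 10 kb. H2A.Z-WT covered 19.5%, 21.1%, 28.2%, 31.4%, 24.4% and 18.8% of the same bases, so both were highest in domains of middle length. Domains within 2 kb of a protein-coding start held the mutant at 24.1% (22.9 to 25.3) and had a median length of 1200 bp, and those farther away at 9.33% (8.44 to 10.3) with a median of 200 bp.

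**Figure D5:**
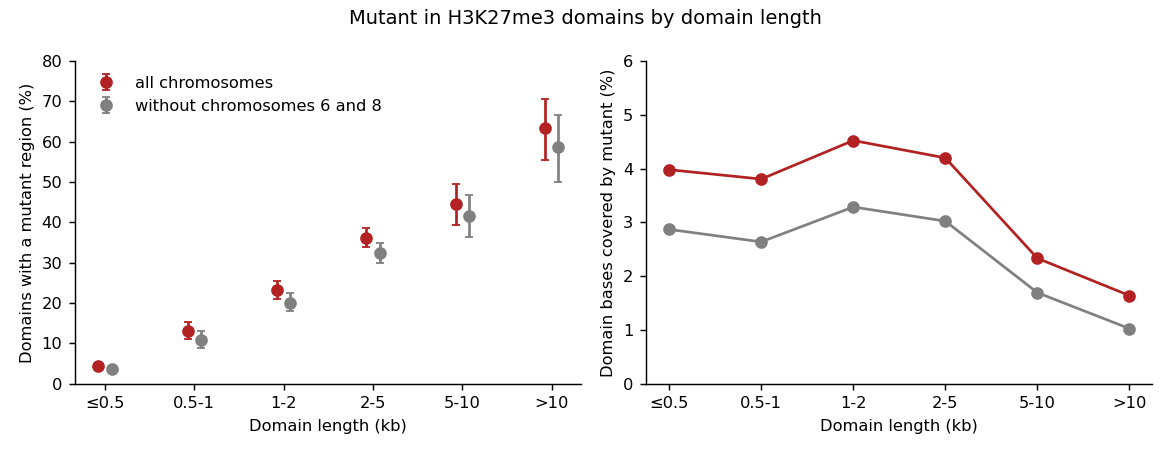
Share of H3K27me3 domains that hold a mutant region (left, %, bars are 95% Wilson intervals) and share of domain bases covered by the mutant (right, %) by domain length in kb, with and without chromosomes 6 and 8. The share of domains goes from 4.48% in the shortest group to 63.3% in the longest, while the share of bases is 3.98% and 1.64%.

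The longest domains were those of the Hox clusters. The Hoxb domain at chr11:96112801-96219725 was 106925 bp long and held 3 mutant regions of 250 bp in all, beside 8725 bp of H2A.Z-WT. The Hoxc domain at chr15:102752551-102851075 was 98525 bp long and held 375 bp of mutant and 6925 bp of H2A.Z-WT. The longer of the Hoxa domains, at chr6:52148701-52204525, was 55825 bp long and held 18 mutant regions of 5175 bp in all, beside 19775 bp of H2A.Z-WT. The domain of Hoxd8 to Hoxd13 at chr2:74491876-74542750 held 2 mutant regions of 450 bp in 50875 bp. Among the longest domains with no mutant region were those of Uncx (24525 bp), Pax7 (23650 bp), Pax2 (23125 bp) and Onecut1 (22525 bp), all transcription factor genes, with 2975, 550, 5225 and 4725 bp of H2A.Z-WT.

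The mutant regions farthest inside a domain were within Hox clusters. One of 25 bp at chr11:96162101-96162125, in a coding exon of Hoxb6, was 49312 bp from the nearest edge. One of 225 bp at chr15:102812051-102812275, in a coding exon of Hoxc9, was 38913 bp from it, and one of 375 bp at chr6:52175576-52175950, in a coding exon of Hoxa9, was 27062 bp from it. The 5 longest mutant regions that crossed an edge all lay on chromosomes 6 and 8. The longest, of 2925 bp at chr6:53767426-53770350 in a coding exon of Tril, had 1900 bp inside its domain. The next, of 2550 bp at chr8:72606526-72609075 in an intron of Hapln4, had 1400 bp inside. The others were at Nod1 (2250 bp), Gm20388 (2050 bp) and Kcnk1 (1975 bp).

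Mutant regions had CpG densities near those of the wild-type regions of the same place. Those inside domains had 6.18 CpG per 100 bp, those across an edge 4.88, those outside but within 1 kb 5.16 and those farther away 3.09. Wild-type regions had 6.15, 5.43, 5.19 and 3.33. The midpoint lay within 2 kb of an annotated start for 71.3% of mutant regions inside domains and 30.6% of those farther than 1 kb from any domain.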

How the data were processed

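ChIP-Seq region lists of 3 libraries were used, 1 per group, grouped by the genotype and antibody labels. The authors aligned reads to mm9 with Bowtie 0.12.3, extended them, binned them and called enriched bins against a Poisson background with a minimum fold over input, for each library alone; the submitters' processing notes also name bedtools. The deposited values are the starts and ends of regions at thresholds of 1e-9 (used here) and 1e-12. Depth, heights and the input were not analysed here. The H3K27me3 antibody in the labels and in the study's methods comes from different suppliers.

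Covered bp of each list were counted within 2 kb of the most upstream protein-coding start of GENCODE vM1 genes on chromosomes 1 to 19 and X. Coordinates are 1-based. Named genes were those with most mutant, H3K27me3 or wild-type coverage, up to 4 genes with both per family, and the genes of the site-specific PCR; 1 gene that the rule names is not reported here. The members and lists were chosen with earlier results of these data known. Examples of sequence and of long domains were chosen after their values were seen. Procedures were tested on simulated data. Python 3.11.15, NumPy 2.4.6, SciPy 1.17.1 and Matplotlib 3.10.9 were used.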

Additional observations from a re-analysis of the deposited data

Results flagged for a closer look

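A mutant region appeared in the stricter list at genes counted as lacking the mutant. Of the 2292 H3K27me3 genes with no mutant region at 1e-9, 160 had one within 2 kb in the 1e-12 list (6.98%, 6.01 to 8.10). Among genes with neither list at 1e-9 the count was 475 of 15401 (3.08%, 2.82 to 3.37). The 3 with the longest such coverage were Htra4 on chromosome 8 with 2150 bp, Ccdc48 on chromosome 6 with 1225 bp and Gpr84 on chromosome 15 with 1107 bp. They were chosen after their values were seen. A count of lacking genes therefore depends on which list is read, and 172 of 6893 domains without the mutant at 1e-9 likewise held a region of the 1e-12 list.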

How the results depend on the processing

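Among 10 results under up to 12 settings each, 82 values were recomputed. Of these, 27 stayed within the interval of the reported value (for the difference between medians, within its own size) and 55 moved beyond it. A change of direction was possible only for the difference in the mutant's share and the difference between medians, and 0 of their values changed direction. The other results are shares, which have no direction. With the mutant list at 1e-12 the mutant was at 31.3% of H3K27me3 genes, the difference by H3K27me3 was 17.2 points, 2.25% of mutant regions crossed an edge and 13.7% of domains held the mutant. With the H3K27me3 list at 1e-12, 28.0% of mutant genes held the mark, 7.76% of mutant regions lay inside domains and 18.8% of domains held the mutant. With both at 1e-12 the mutant was at 31.6% of H3K27me3 genes, 27.3% of mutant genes held the mark, the difference was 17.2 points, 8.07% of regions lay inside and 14.6% of domains held the mutant. With the union of thresholds the share at H3K27me3 genes was 43.6% and the difference 24.0 points. That share was 35.9% within 1 kb, 43.4% within 5 kb, 42.5% at any start and 32.2% with at least 100 covered bp. The share of mutant genes with the mark was 28.0% within 1 kb, 34.0% at any start, 29.8% with at least 100 bp and 35.2% at windows that touch no other, and the difference was 20.2 points within 1 kb, 24.6 at any start and 18.3 with at least 100 bp. Without chromosomes 6 and 8 the share was 35.1%, the difference 20.3 points, regions inside 10.6% and domains with the mutant 15.3%. Over genes with wild-type coverage the share was 41.4%, that of mutant genes with the mark 33.7% and the difference 11.4 points, since this leaves out genes without H2A.Z-WT. With H3K27me3 regions as listed, 6.77% of mutant regions lay inside, 4.48% crossed an edge, 9.34% of regions held the mutant and 28.7% of mutant bases lay within 500 bp of an edge. Joined across 3 kb, these were 11.6%, 1.87%, 24.6% and 9.64%. With mutant regions of at least 100 bp, 3.36% crossed an edge and 14.3% of domains held the mutant. Where no reason is given, the cause was not tested. Of the 18 other values, 13 moved.

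No paired analysis was possible because each group has 1 library, and there was no replicate to leave out. The depth behind the lists is unknown, and the absence of a region is not evidence that the protein or mark is absent.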

Other observations

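Counts of the mutant in families with little H3K27me3 are given beside the 20.8% of all genes that held it. Of 76 mitochondrial ribosomal protein genes, 21 held the mutant (27.6%, 18.8 to 38.6) and 1 held H3K27me3, Mrpl23, with 250 bp of mutant and 50 bp of H3K27me3 that did not overlap. Of 79 cytosolic ribosomal protein genes, 11 held the mutant (13.9%, 7.96 to 23.2) and 2 the mark, with both at Rpl7, where the 425 bp of each did not touch. Of 67 replication-dependent histone genes, 0 held the mutant (upper limit 5.42%) and 2 the mark. Of 1087 olfactory receptor genes, 9 held the mutant (0.828%, 0.436 to 1.57) and 3 the mark, with both at Olfr222. Of 31 Polycomb subunit genes, 4 held the mutant (12.9%, 5.13 to 28.9), 3 of them without the mark.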
